A study of Mus musculus with 2 samples.

Results

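The Mir183, Mir96 and Mir182 genes form a small cluster of microRNA (miRNA) genes on mouse chromosome 6, and their levels are described here in the embryonic stomach. The members were chosen by name, as the rows of the count tables whose Ensembl identifier maps to 1 of these 3 symbols, and all 3 were found among 1973 genes counted. The samples were whole stomachs of B6NCrl mouse embryos at 14.5 days of development, with no treatment or genetic change given, and total RNA was sequenced as small RNA below 30 nt. There were 2 biological replicates from different collection days, and no other group, so no comparison between conditions was possible. The labels call each sample a stomach of a single pup and also give its sex as pooled male and female, which leaves the number of embryos behind each library unclear.

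A miRNA is cut from a hairpin in a longer transcript, and 1 arm of the hairpin usually becomes the mature strand that guides silencing proteins to messenger RNAs. Pairing is led by the seed, bases 2 to 8 of the mature miRNA. The Mir183 cluster is known for its strong expression in sensory cells of the eye, ear and nose, is conserved across vertebrates, and is transcribed as a shared precursor. Seed mutations of miR-96 cause progressive hearing loss in humans and in mice, and miR-182 and miR-96 are known repressors of the transcription factor Foxo1. The cluster is also known from epithelia and from activated lymphocytes.

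The mature sequences are shown because they tell the members apart and show how closely they are related. They are given 5′ to 3′ with the seed in capitals, from RefSeq on GRCm38.p6, in which all 3 members were matched.
miR-183-5p: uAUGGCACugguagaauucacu
miR-96-5p: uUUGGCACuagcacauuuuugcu
miR-182-5p: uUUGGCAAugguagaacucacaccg
Bases 3 to 7, UGGCA, are the same in all 3. With miR-96-5p as the reference and positions counted from 1 at its 5′ end, miR-183-5p differs within the seed by U2A and miR-182-5p by C8A. No 2 members therefore share all of bases 2 to 8, while miR-96-5p and miR-182-5p share bases 2 to 7, UUGGCA. Over the whole compared length, seed included, the closest pair is another one. Aligned without gaps from the 5′ end, miR-182-5p and miR-183-5p are identical at 18 of 22 positions, miR-183-5p and miR-96-5p at 13 of 22, and miR-182-5p and miR-96-5p at 12 of 23.

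The hairpins are shown with both mature arms in capitals, since the tables count reads per gene and do not separate the arms. The level of a gene here is therefore the sum of its 5p and 3p strands.
Mir183: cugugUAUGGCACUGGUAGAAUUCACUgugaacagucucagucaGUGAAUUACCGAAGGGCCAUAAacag
Mir96: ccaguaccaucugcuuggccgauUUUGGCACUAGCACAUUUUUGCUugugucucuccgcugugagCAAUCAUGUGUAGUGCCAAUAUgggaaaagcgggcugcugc
Mir182: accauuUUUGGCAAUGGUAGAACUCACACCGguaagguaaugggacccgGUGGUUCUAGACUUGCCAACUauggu
Reads that map to several places were counted for no gene. The longest stretch that any of these 3 hairpins shares with another of the 1004 other hairpins in the RefSeq table is 10 nt, and no other hairpin holds any of the 3 mature 5p sequences.

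The cluster lies between annotated genes. On GRCm38 (mm10) all 3 precursors are on the minus strand of chromosome 6, where transcription meets Mir183 first (ENSMUSG00000065619.2, 30169668 to 30169737), then Mir96 (ENSMUSG00000065586.1, 30169446 to 30169551) and last Mir182 (ENSMUSG00000076361.1, 30165918 to 30165992). Mir183 and Mir96 are 116 nt apart, whereas 3453 nt separate Mir96 from Mir182. The whole cluster spans 3820 nt and overlaps no other gene of GENCODE M21. The nearest annotated gene is the long noncoding RNA Rncr4, which starts 3155 nt from Mir183 and is on the plus strand. The nearest protein-coding gene is Nrf1, also on the plus strand, 12459 nt from Mir182.

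All 3 members were well measured. Levels are counts per 1000000 gene counts (CPM), and all genes together had 4679914 counts in replicate 2 and 5004548 counts in replicate 1. A level is a share of the counted miRNA, so fewer cells of a type and less RNA per cell cannot be told apart. Together the members held 9007 CPM in replicate 2 and 7477 CPM in replicate 1, or 0.901% and 0.748% of the gene counts. Their mean total was 8242 ± 1082 CPM (SD, n = 2).

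Mir182, the last precursor of the cluster, was the most abundant member. It had 23688 counts in replicate 2 and 18848 in replicate 1, which is 5062 CPM (95% exact Poisson interval 4997 to 5127) and 3766 CPM (3713 to 3820). Its mean was 4414 ± 916 CPM (SD, n = 2), and it ranked 47 of the 1973 genes. Replicate 2 was clearly the higher library for this gene, and the intervals did not overlap. All intervals here are computed from single counts and cover counting error only. The reads carry no molecular identifiers, so copies of the same molecule cannot be told apart and the intervals may be too narrow. The SD between libraries was 30.2 times the SD from counting alone for Mir182, 7.89 times for Mir96 and 1.77 times for Mir183.

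Mir183, the first precursor, came next. It had 12453 counts in replicate 2 and 13024 in replicate 1, or 2661 CPM (2614 to 2708) and 2602 CPM (2558 to 2648), with a mean of 2632 ± 41.4 CPM and rank 64. The libraries were nearly level for Mir183, with overlapping intervals.

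Mir96, the member linked to hearing loss, was the lowest. It had 6010 counts in replicate 2 and 5548 in replicate 1, or 1284 CPM (1252 to 1317) and 1109 CPM (1080 to 1138), with a mean of 1196 ± 124 CPM and rank 99. The lower library of Mir182 was above the higher library of Mir183, and the lower library of Mir183 was above the higher library of Mir96. The order Mir182, Mir183, Mir96 thus held in both libraries, with no overlap between neighbours in the order. It is not the order of the precursors along the transcript.

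**Figure D1:**
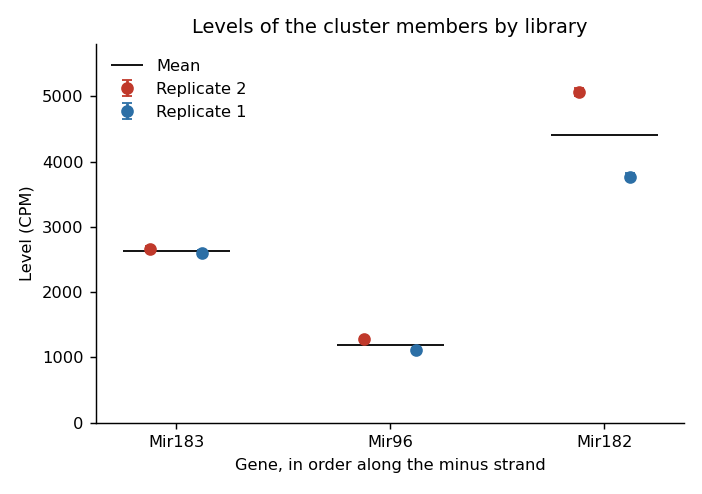
Levels of the members in CPM (vertical axis, from 0), with replicate 2 left and replicate 1 right for each gene, bars for the 95% Poisson interval and a line at the mean. Mir183 was at 2661 and 2602 CPM, Mir96 at 1284 and 1109 CPM, and Mir182 at 5062 and 3766 CPM, so the libraries stand apart most for Mir182.

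**Figure D2:**
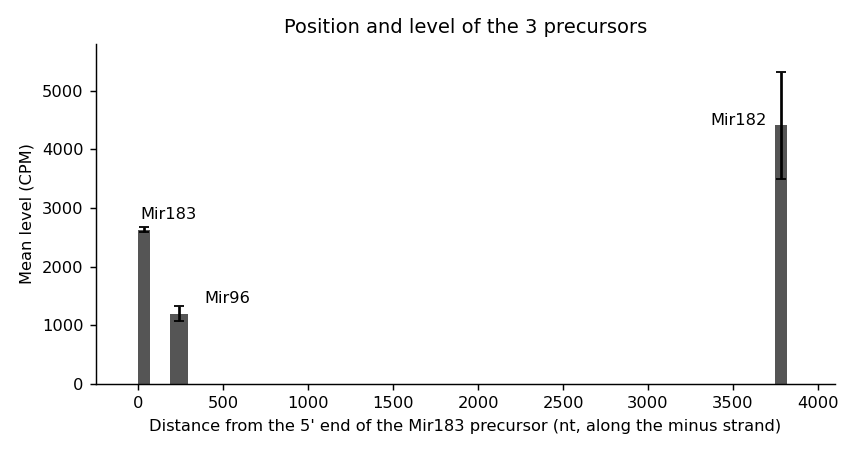
Mean level in CPM (vertical axis, bars from 0, error bars are the SD of 2 libraries) against the distance in nt from the 5′ end of the Mir183 precursor, with bar widths to scale. Mir183 and Mir96 lie 116 nt apart at 2632 and 1196 CPM, and Mir182 lies 3453 nt beyond Mir96 at 4414 CPM.

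The ratios between members were similar in the libraries but not equal. These comparisons of counts are not corrected for precursor length, because 1 read is 1 short RNA. Mir182 exceeded Mir96 by 3.94-fold in replicate 2 and 3.40-fold in replicate 1, a mean log2 ratio of 1.87 ± 0.15 (SD, n = 2). Mir183 exceeded Mir96 by 2.07-fold in replicate 2 and 2.35-fold in replicate 1 (log2 ratio 1.14 ± 0.13). Mir182 exceeded Mir183 by 1.90-fold in replicate 2 and 1.45-fold in replicate 1 (log2 ratio 0.73 ± 0.28), the ratio with the widest spread. Each log2 ratio was more than its SD away from 0. The SD covers the spread between libraries and does not cover an error that both share. These ratios were not tested, because an exact two-sided sign-flip test over 2 libraries cannot give a p below 0.5.

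Seen as shares of the cluster, Mir182 made up 56.2% of the cluster's counts in replicate 2 and 50.4% in replicate 1. Mir183 made up 29.5% in replicate 2 and 34.8% in replicate 1, and Mir96 14.3% in replicate 2 and 14.8% in replicate 1. Mir182 was therefore the main member of both libraries. Shares add up to the whole, so a higher share of Mir182 in replicate 2 lowers the shares of the others by construction. The level of Mir183 itself was nearly the same in both libraries. The total of the cluster was 1529.6 CPM higher in replicate 2, and Mir182 accounted for 84.7% of that difference. That percentage depends on how the libraries are scaled and was not computed under other scalings.

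Replicate 2 was then set against replicate 1 across all genes to ask whether the members differed between libraries. This was done with an exact binomial test of the counts of each gene, two-sided, over the 361 genes with 10 or more counts in both libraries, and it compares these libraries and not conditions. A gene was called where its p, adjusted by Benjamini-Hochberg, was under 0.05 and its log2 ratio was at least 1 in size. None of the 3 members was called, where 4 of 361 genes (1.11%) were. By adjusted p alone, 2 of the 3 members differed, and so did 152 of all genes tested (42.1%), of which 89 (24.7%) were higher in replicate 2, against 63 that were lower there. Scaled by edgeR TMM, 74 were higher and 94 lower, and by DESeq2 size factors 58 were higher and 115 lower. At the depth of these libraries such a share is common to many genes and gives nothing particular to the cluster.

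Mir182 had a log2 ratio of replicate 2 over replicate 1 of 0.43, a 1.34-fold difference, with a 95% interval of 0.40 to 0.45 and an adjusted p of 2.79e-201 in the exact binomial test. Mir96 had a log2 ratio of 0.21 (interval 0.16 to 0.27, exact binomial adjusted p = 1.86e-14). Mir183 had a log2 ratio of 0.03 (interval -0.0035 to 0.068, exact binomial adjusted p = 0.146), and this sign turned with edgeR TMM, DESeq2 size factors and totals without the 5 most abundant genes (exact binomial adjusted p of 0.0035 to 0.524). It did not turn with all reads as the total, a setting added after the values were seen (log2 ratio 0.021), nor with own-strand counts (0.032). Mir182 and Mir96 stayed higher in replicate 2 under each of these settings. The intervals of the 3 log2 ratios did not overlap, but they cover counting error only and not the variation between embryos.

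Against genes of like abundance, the ratio of Mir182 lay near the upper end. Of the 196 genes with a mean of 100 CPM or more, whose log2 ratios had an SD of 0.20, 6 had a higher log2 ratio than Mir182 and none was further from 0 in the other direction. Of the 104 genes with 1000 CPM or more, Mir342 was the only one above Mir182, 14 were above Mir96 and 49 were above Mir183. Mir183 was therefore near the middle of the genes of its abundance.

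**Figure D3:**
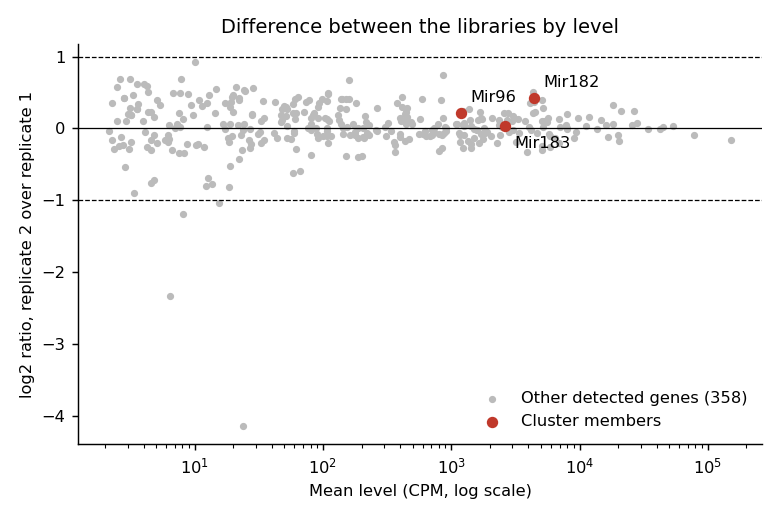
The log2 ratio of replicate 2 over replicate 1 (vertical axis) against mean level in CPM (horizontal axis, log scale) for the 361 detected genes, with the 3 members in red and dashed lines at log2 ratios of 1 and -1. Mir182 is at 0.43, Mir96 at 0.21 and Mir183 at 0.03, all inside the dashed lines.

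The strand of the reads was read from the separate strand columns. Replicate 2 had 0 counts on the opposite strand for all 3 members. In replicate 1 Mir182 had 2 such counts, Mir183 had 1 and Mir96 had 0. These counts did not exceed the limit of 3 that a count of 0 allows. Nearly all counts of the members thus came from their own strand, with 18846 of 18848 for Mir182 in replicate 1.

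Levels were also read by shared seed bases, since miRNAs with the same seed are known to share targets. The 5p strands of Mir96 and Mir182 share bases 2 to 7 but not the full seed. Together these genes had 6346 CPM in replicate 2 and 4875 CPM in replicate 1 (5610.3 ± 1040.2 CPM, SD, n = 2), more than the 2632 ± 41.4 CPM of Mir183. Both arms are counted, so this is a level of the genes and not of the shared bases alone. Outside the cluster, 1 mature miRNA of the RefSeq table has the full seed of miR-96-5p, and none has that of miR-183-5p or miR-182-5p. It is shown because its seed cannot be told from that of miR-96-5p.
miR-1271-5p: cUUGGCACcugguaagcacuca
Its gene, listed as Gm24195 on chromosome 13, had 0 counts in both libraries, so that its level may have reached 0.641 CPM in replicate 2 or 0.599 CPM in replicate 1 at most. Mir96 was at least 2003-fold higher in replicate 2 and at least 1849-fold higher in replicate 1, against that limit of 3 counts per library. Of the genes with this seed, Mir96 was thus the only one with counts.

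The spread of levels within the cluster was set beside that of other miRNA clusters, to see how evenly neighbouring precursors were represented. A cluster was taken as precursors of the same strand with gaps of at most 10000 nt, and 13 clusters had 3 or more detected genes. The highest member exceeded the lowest by 3.69-fold in the Mir183 cluster (3.94-fold in replicate 2 and 3.40-fold in replicate 1). In the other 12 clusters this ratio ran from 7.82-fold, in the Mir302 cluster of pluripotent cells, to 3249-fold, and the median over all 13 was 85.7-fold. Over the 5 clusters whose detected members all had a mean of 100 CPM or more, the Mir183 cluster included, the median was 10.7-fold, and the other 4 were again wider than the Mir183 cluster. Most of the other 12 clusters have more counted members than the Mir183 cluster, and undetected members were left out. Among clusters of 3 counted genes, the ratio was 8.71-fold in the Mir106b-Mir93-Mir25 cluster, 17.9-fold in the epithelial Mir200b-Mir200a-Mir429 cluster and 85.7-fold in the Mir23a-Mir27a-Mir24-2 cluster.

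Genes with copies elsewhere lose reads that map to several places, and of the 361 detected genes 82 share 20 nt or more with another precursor. No Mir183 cluster member does. Without such genes (a setting added after the values were seen), the 4 remaining genes of the Mir106a-Mir363 cluster had a narrower ratio of 3.44-fold, the Mir183 cluster was second of 10 clusters, and the median was 49.4-fold. The Mir23a-Mir27a-Mir24-2 cluster was not among these 10, so its ratio of 85.7-fold includes at least 1 gene that may lose reads. The ratio of replicate 2 over replicate 1 also varied within clusters. Its log2 values spanned 0.39 in the Mir183 cluster, against a median span of 0.54 over the 13 clusters, and 5 clusters had a smaller span. Over the 5 clusters of 100 CPM or more the median span was 0.37, and 3 of them had a smaller span than the Mir183 cluster. Its span was thus below the median of one set and above that of the other.

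**Figure D4:**
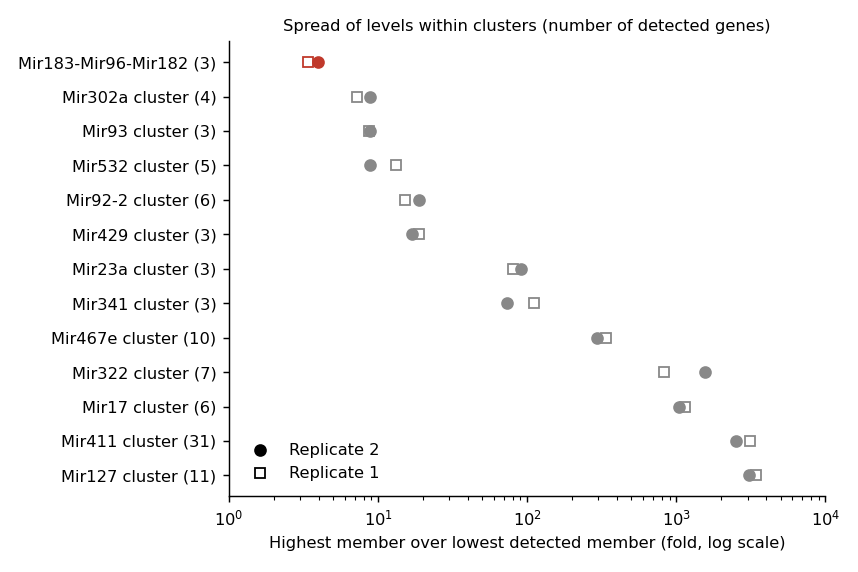
Highest member over lowest detected member in each of 13 clusters (horizontal axis, fold on a log scale), with filled circles for replicate 2, open squares for replicate 1 and the number of detected genes in brackets. The Mir183 cluster, in red, is at 3.94-fold and 3.40-fold, left of the other 12.

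Next to the cluster on chromosome 6, levels differed widely. Within 1000000 nt on either side, 5 other miRNA genes were counted and 2 of them were detected. Mir335, a miRNA of the imprinted Mest gene 571561 nt away on the other strand, had 54558 CPM in replicate 2 and 53141 CPM in replicate 1. Mir29a, a miRNA known to target collagen messages, lies 892922 nt away on the same strand as the cluster and had 40.4 CPM in replicate 2 and 42.4 CPM in replicate 1. The Mir183 cluster was thus between these neighbours in level in both libraries.

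The genes closest to each member in level were found by the Euclidean distance of log2(CPM + 1) over the 2 libraries, taking the 2 nearest of the detected genes. Mir182 was nearest to Mir125a (5005 CPM in replicate 2 and 3876 CPM in replicate 1, distance 0.044) and Mir342 (5075 and 3581 CPM, distance 0.073). Mir183 was nearest to Gm24083 on chromosome 9 (2833 and 2614 CPM, distance 0.091) and Mir381 (2522 and 2478 CPM, distance 0.10). Gm24083 is annotated on the minus strand, but its counts hold both strands, and the strand of its reads was not examined. Mir96 was nearest to Mir28a (1349 and 1141 CPM, distance 0.083) and Mir107 (1257 and 1211 CPM, distance 0.13). With only 2 libraries, likeness here is one of level and not of pattern.

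Marker lists of several cell types were read beside the cluster. These lists were chosen with earlier results of these data known, so they describe the samples and are no independent check. Genes of smooth muscle and of epithelium, cell types of the stomach wall and lining, were present. These lists mark cell types and not the stomach itself. Mir143 of smooth muscle, the most abundant of all genes, and Mir145a were both detected, and this list was 18.9-fold above the cluster (log2 ratio of the cluster over the list -4.24 ± 0.31, SD, n = 2). Of epithelial miRNAs, all 5 members of the Mir200 family were detected. The list was 5.05-fold above the cluster (log2 ratio -2.34 ± 0.19).

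Within the epithelial list, Mir182 was below Mir429, Mir200c and Mir200b but above Mir141 (1572 CPM in replicate 2 and 1599 CPM in replicate 1). Mir200a had 1132 CPM in replicate 2 and 1088 CPM in replicate 1, close to Mir96. Mir205 and Mir203 of stratified epithelium, which lines the mouse forestomach, were 2.03-fold above the cluster in sum (log2 ratio -1.02 ± 0.19). Mesenchymal miRNAs were 1.86-fold above it (log2 ratio -0.89 ± 0.11), mostly through Mir214 (15197 CPM in replicate 2 and 14036 CPM in replicate 1). The mesenchymal sum may be too low, since reads shared by gene copies such as Mir199a-1 and Mir199a-2 are not counted.

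Endocrine miRNAs, as counted, were of about the same level as the cluster. The cluster was 1.45-fold above their sum (log2 ratio 0.53 ± 0.33). That sum may be too low, since reads shared by gene copies such as Mir7-1 and Mir7-2 are not counted. Mir375, known from endocrine cells and gastric epithelium, had 4678 CPM in replicate 2 and 5552 CPM in replicate 1, against 5062 and 3766 CPM for Mir182, so the order of these genes differed between the libraries. Mir375 had a log2 ratio of replicate 2 over replicate 1 of -0.25 (exact binomial adjusted p = 4.36e-79), opposite in sign to that of Mir182.

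Of the list for the eye, sensory and other neurons, in which the cluster has its best-known roles, most genes were scarce. Of the 9 genes on this list, 8 were counted and 2 detected. Mir137 had 1832 CPM in replicate 2 and 1669 CPM in replicate 1, and Mir204, of the retina and its pigment epithelium, had 30.1 CPM in replicate 2 and 31.8 CPM in replicate 1. Mir211, a relative of Mir204, had 2 counts in replicate 2 and 5 in replicate 1. No count was found in either library for Mir9-2, Mir124a-1 or Mir124a-2. Mir124a-3 had 0 in replicate 2 and 1 in replicate 1, and Mir9-3 had 9 in replicate 2 and 11 in replicate 1. Mir124 and Mir9 have several genomic copies whose shared reads are not counted, so their levels are uncertain.

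The cluster was 4.60-fold above the sum of this list (log2 ratio 2.20 ± 0.10). It was 12.2-fold above the blood list of Mir223, Mir451a and Mir144 (log2 ratio 3.61 ± 0.06), and 134-fold above Mir122 of the liver (log2 ratio 7.07 ± 0.04). Which cells of the stomach hold the cluster was not tested, since whole organs were sequenced.

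**Figure D5:**
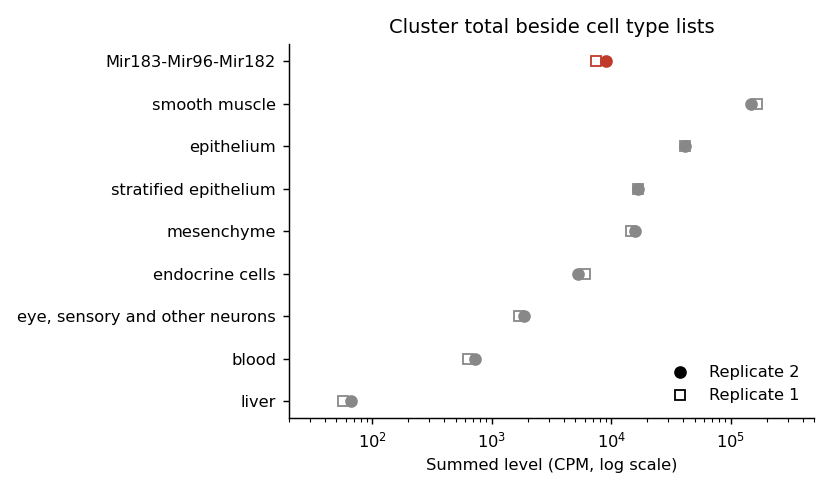
Summed level in CPM (horizontal axis, log scale) of the Mir183 cluster, in red, and of 8 cell type lists, with filled circles for replicate 2 and open squares for replicate 1. The cluster, at 9007 and 7477 CPM, lies below the smooth muscle, epithelial, stratified epithelial and mesenchymal lists and above the endocrine, neuronal, blood and liver lists in both libraries. The endocrine, mesenchymal and neuronal lists hold genes with copies, whose shared reads are not counted, and may be placed too low.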

How the data were processed

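The authors deposited whole-number read counts per gene, 1 table per library, made from an alignment on mm10 with GENCODE M4 per the file headers in the text beside the tables. Neither aligner nor counter is named: not given in the sources used here. Used was the first count column, which holds both strands; the others separate the strands and add up to it for all 1973 genes. Lines that name no gene (unmapped, multiply mapped and unannotated reads), 43.3% of reads in replicate 2 and 42.8% in replicate 1, were left out.

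Symbols and coordinates came from GENCODE M21 (GRCm38). Levels are CPM of gene counts. Genes with 10 or more counts in both libraries (361) were tested between libraries with scipy 1.17.1. The test was checked on simulated Poisson counts, which hold counting error only and no variation between embryos. An edgeR quasi-likelihood fit has no contrast in 1 group; edgeR 4.0.16 and DESeq2 1.42.0 gave alternative scaling only. Named genes are the members, the 2 nearest in level to each, neighbours within 1000000 nt, the marker lists and genes with a member's seed, with clusters used for comparison beside them. The members and lists were chosen with earlier results of these data known.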

Additional observations from a re-analysis of the deposited data

How the results depend on the processing

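The order of the members and the absence of a call for each held under every alternative that was run. Without replicate 1 or replicate 2, levels lay at 2602 to 2661 CPM for Mir183, 1109 to 1284 CPM for Mir96 and 3766 to 5062 CPM for Mir182, and log2 ratios at 0.53 to 0.93 for Mir182 over Mir183, 1.76 to 1.98 for Mir182 over Mir96 and 1.05 to 1.23 for Mir183 over Mir96. Levels moved with the denominator by construction. With all reads as the denominator they were 1498 CPM for Mir183, 681 CPM for Mir96 and 2512 CPM for Mir182, and without the 5 most abundant genes in the denominator 4189, 1902 and 7009 CPM. With own-strand counts Mir183 was at 2706 CPM.

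The log2 ratio of replicate 2 over replicate 1 of Mir183 reversed to -0.021 with edgeR TMM (adjusted p = 0.405 by the exact binomial test), to -0.058 with DESeq2 size factors (adjusted p = 0.0035 by the same exact test) and to -0.016 without the 5 most abundant genes (adjusted p = 0.524, exact test), since these shift all ratios by -0.053, -0.090 and -0.048. Mir182 then had 0.37, 0.34 and 0.38, and Mir96 0.16, 0.12 and 0.16. By adjusted p alone, the 89 genes higher in replicate 2 and 63 higher in replicate 1 became 74 and 94, 58 and 115, and 74 and 92 under these scalings. With genes of 1 or more counts in both libraries, 7 of 605 were called against 4 of 361. Counted per nt of precursor, the log2 ratios became 2.37 for Mir182 over Mir96 and 1.74 for Mir183 over Mir96, as the Mir96 precursor is the longest. With gaps of at most 3000 nt Mir182 falls outside the cluster, so no spread within it can be given. Leaving out a library leaves no ratio between libraries. No paired analysis was possible because there is 1 group.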
